A study of Caenorhabditis elegans with 12 samples.

Results

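Homeobox genes that pattern neurons and the body axis were followed in whole Caenorhabditis elegans at day 10. The set holds 84 of the 46739 genes in the count table. It was chosen by name: 63 genes with a ceh symbol (C. elegans homeobox) followed by a number, and 21 homeobox genes with other names, such as the Hox gene lin-39 and the LIM gene ttx-3. RNA was sequenced from whole worms, 100 per strain, grown at 20 °C, in 12 libraries with 3 biological replicates of each of 4 genotypes. The genotypes, all in the N2 background, were wild type N2, the insulin receptor mutant daf-2, the strain spr-4;spr-3 (called the spr double mutant), and its combination with daf-2, spr-4;spr-3;daf-2 (called the spr triple mutant). The labels name no alleles and do not say from which event day 10 was counted. The insulin/IGF-1 receptor of the worm is DAF-2, and lowering it lengthens life. SPR-3 and SPR-4 are zinc finger proteins that have been compared with REST, a vertebrate repressor of neuronal genes.

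A homeobox gene encodes a transcription factor that binds DNA through its homeodomain. Hox proteins give cells their position along the body axis, often together with Pbx-type partner proteins. Many LIM, POU, paired-like and sine oculis-type proteins act as selectors, which switch on the genes that make a cell, for example, a touch neuron, a thermosensory neuron or a pharyngeal neuron. Many homeobox genes are active in embryos and stay on in the adult in few cells.

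Library totals ran from 11892808 to 46493665 counts, both in daf-2 (replicates 2 and 3). Replicate 2 of the spr double mutant stood apart from its group: a chi-square of 143 and 162 for each degree of freedom set it off from replicates 1 and 3, against 21.6 to 65.6 for the other replicate pairs. Without it, 11 homeobox genes in place of 7 passed in the spr double mutant against N2, 11 in place of 6 in the interaction, and 10 in place of 8 in the spr triple against the spr double mutant. Shares of all tested genes in those fits are not given, so these counts describe stability and no trait of the homeobox genes. Between 65 and 76 of the 84 genes had at least 10 counts in a library. Transcripts of the mutated genes were counted in every library, so they do not mark the strains by absence: spr-3 lay between 21.2 and 42.5 CPM, spr-4 between 21.8 and 76.8 CPM, and daf-2 between 35 and 72.6 CPM. CPM are counts scaled by the library total times its TMM factor. Markers of neurons, muscle, pharynx, intestine, skin, glia, oocytes, sperm and embryos were all counted. The 13 pan-neuronal markers summed to 553 to 638 CPM in N2, 575 to 644 in daf-2, 542 to 606 in the spr double mutant and 524 to 563 in the spr triple mutant. The spr triple mutant lay below daf-2 without overlap. Of the 13, 6 passed in some edgeR test, some higher and some lower, beside 40.6% of all tested genes. The 10 oocyte markers summed to 4330 to 5750 CPM in N2, 2120 to 2430 in daf-2, 4660 to 5190 in the spr double mutant and 3440 to 4350 in the spr triple mutant. The 15 embryo markers summed to 10.8 to 16.8 CPM in N2, 16.5 to 22.2 in daf-2, 22.5 to 23.5 in the spr double mutant and 22.9 to 25.7 in the spr triple mutant. In whole worms, fewer cells of a type and less RNA per cell cannot be told apart.

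Homeobox transcripts were mostly scarce at day 10, with a few exceptions. Levels between genes are compared as CPM per kilobase (kb) of exon. The median N2 level over the 84 genes was 2.31 CPM per kb, against 5.66 over the 18342 genes with enough counts to be tested. The 84 include 10 genes with too few counts for testing, so these medians cover unlike sets. Of the 84, 23 lay above that second median and 27 were under 1 CPM per kb. The highest level was that of ceh-62, with 40.3 ± 10.5 CPM per kb (SD, n = 3), above 84.3% of the tested genes.

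The next was pal-1, a Caudal relative whose maternal transcript helps to specify posterior embryonic cells, with 39.9 ± 1.58 CPM per kb. The Onecut gene ceh-38 stood at 29.9 ± 3.27 CPM per kb, and ceh-99 at 28.9 ± 3.6. Levels of 27.3 ± 3.3 CPM per kb for ceh-83, 25.6 ± 0.629 for ceh-92 and 23.4 ± 3.32 for the Otx relative ceh-37 followed. The last of the 10 highest were lin-11, a LIM gene of vulva, uterus and interneurons, with 18.8 ± 2.93 CPM per kb, ceh-63 with 15.1 ± 1.35 and the Onecut gene ceh-21 with 14.9 ± 1.72. Neighbours that differed by less than both SDs were ceh-62 and pal-1, ceh-38 and ceh-99, ceh-99 and ceh-83, and ceh-63 and ceh-21. Selector genes of single neuron classes, outside these 10, lay on both sides of the median of 2.31 CPM per kb over the 84 genes. The touch neuron gene mec-3 had 4.78 ± 0.773 CPM per kb, ttx-1 of the AFD thermosensory neurons 3.3 ± 0.984, and ttx-3 of the AIY interneurons 1.38 ± 0.385.

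**Figure D1:**
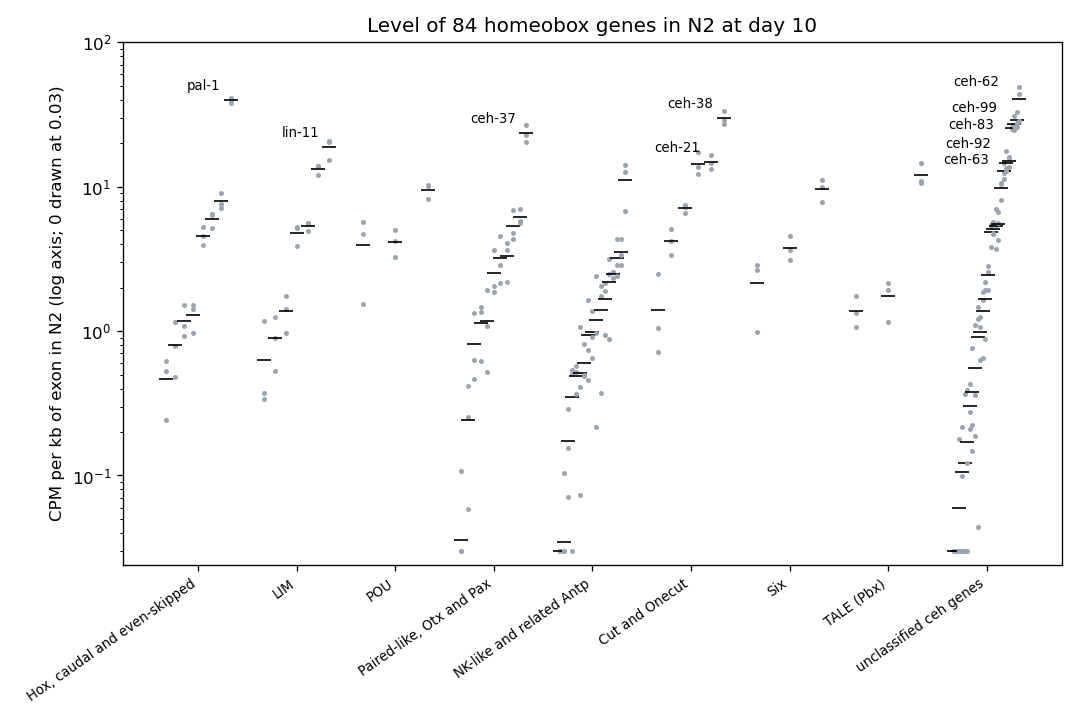
Level of the 84 homeobox genes in N2, grouped by homeodomain class. The log axis is CPM per kb of exon, dots are the 3 replicates, dashes are their means, and values of 0 are drawn at 0.03. The 10 highest genes are named, led by ceh-62 at 40.3 and pal-1 at 39.9 CPM per kb.

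All 84 genes had a count in some library, 69 were counted throughout, and 74 passed the filter for testing. The other 10 (ceh-12, ceh-17, ceh-24, ceh-28, ceh-54, ceh-75, ceh-76, ceh-84, ceh-87 and ceh-90) had 3 to 76 counts in all and at most 0.844 CPM. In N2, ceh-12, ceh-81 and ceh-90 had 0 counts over the group. The count over the 3 libraries of each other genotype was 13 to 21 for ceh-12, 11 to 25 for ceh-81 and 7 to 30 for ceh-90. The spread between replicates was wide at the low end: the median coefficient of variation was 54.6% for the 35 genes under 2 CPM and 13.8% for the 20 genes at 10 CPM or more.

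Many of these genes lie near each other in the genome. On the WBcel235 assembly, 29 of the 84 formed 17 neighbouring pairs within 50000 bp. The Hox pairs nob-1 and php-3 (237 bp apart), lin-39 and ceh-13 (19028 bp) and mab-5 and egl-5 (30920 bp) were among them, as were the Onecut genes ceh-41, ceh-21 and ceh-39 on chromosome X (gaps of at most 1138 bp). Chromosome X held 24 of the 84 genes, or 28.6%, and 21 of the 74 that were tested, against 14% of the 16716 tested protein-coding genes. Exon bases were shared with another gene by 22 of the 84, in 19 cases with a gene that had counts. No source used here states whether counting used strand, so reads of such overlaps cannot be assigned with certainty.

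Across the 5 pairwise comparisons and the interaction, 21 of the 74 tested homeobox genes passed an edgeR adjusted p of 0.05 at least once (28.4%, against 40.6% of all tested genes), and 53 passed in none. In daf-2 against N2, 5 were higher and 7 lower, or 16.2%, against 20.6% of all tested genes (9.58% higher and 11% lower). In the spr double mutant against N2, 2 were higher and 5 lower, or 9.46%, against 11.7% of all tested genes (5.07% higher and 6.6% lower). Both shares lie near or under the background, so neither count sets the homeobox genes apart. The median log2 fold change was -0.01 over the homeobox genes and 0.06 over all genes in daf-2 against N2, and -0.04 against 0.04 in the spr double mutant against N2.

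With daf-2 mutated on both sides, the spr triple mutant against daf-2, 4 homeobox genes were higher and 1 was lower, or 6.76%, against a background of 13.4% (6.77% higher and 6.65% lower). With both spr genes mutated on both sides, the spr triple against the spr double mutant, 5 were higher and 3 lower, or 10.8%, against 14.9% (7.02% higher and 7.92% lower). In the spr triple mutant against N2, 4 were higher and 6 lower, or 13.5%, against 22.2% (10.8% higher and 11.3% lower). Libraries of the compared genotypes did not overlap for 24 of the 74 genes in daf-2 against N2 (32.4%, against 39.9% of all tested genes) and 22 in the spr triple mutant against daf-2 (29.7%, against 36%). The count was 16 in the spr double mutant against N2 (21.6%, against 28.5%), 26 in the spr triple against the spr double mutant (35.1%, against 30.7%) and 17 in the spr triple mutant against N2 (23%, against 38.9%). In the spr triple mutant against daf-2, the median log2 fold change was -0.02 over the homeobox genes and -0.01 over all genes. It was 0.05 and 0.01 against the spr double mutant, and -0.03 and 0.04 against N2. The interaction asks whether mutating the spr genes had a different effect in daf-2 than in N2, as the difference of the log2 changes. It was positive in 5 homeobox genes and negative in 1, or 8.11%, against 8.32% (4.89% positive and 3.43% negative). The share that passed edgeR in either direction was above that of all genes in none of the 6 tests, and what follows describes single genes.

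Of the 8 Hox, caudal and even-skipped genes, which pattern the body axis, 0 passed in any of the 6 tests by edgeR. A p that misses the threshold does not show that levels were equal. At an unadjusted p under 0.05 the counts were 2 in daf-2 against N2 (ceh-13 and vab-7), 1 in the spr triple mutant against daf-2 (ceh-13), 1 in the spr double mutant against N2 (pal-1), 1 in the spr triple against the spr double mutant (pal-1), 0 in the spr triple mutant against N2 and 1 in the interaction (ceh-13). DESeq2 called pal-1 in the spr double mutant against N2 (log2 fold change 0.32, adjusted p = 0.049) and in the spr triple against the spr double mutant (-0.35, adjusted p = 0.027), and no other gene of the class.

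For pal-1 the CPM were 61.4, 59.1 and 56.7 (N2), 54.1, 44.8 and 51.8 (daf-2), 75.7, 70.7 and 78.8 (spr double mutant) and 59.2, 54.1 and 62.3 (spr triple mutant). The spr double mutant libraries lay above all others without overlap, and the daf-2 libraries lay below those of N2. For ceh-13, the labial-type anterior Hox gene, the CPM were 6.98, 6.56 and 8.33 (N2), 9.46, 11 and 9.53 (daf-2), 8.84, 7.89 and 10.0 (spr double mutant) and 7.12, 7.17 and 7.44 (spr triple mutant). The daf-2 libraries were above those of N2 and of the spr triple mutant, and the spr triple mutant was below the spr double mutant. For lin-39, the mid-body Hox gene that is needed for the vulva, the CPM were 8.97, 7.15 and 8.77 (N2), 9.25, 9.1 and 9.78 (daf-2), 7.37, 7.38 and 5.03 (spr double mutant) and 8.62, 8.4 and 8.64 (spr triple mutant). Its daf-2 libraries lay above those of N2 and of the spr triple mutant, and the spr triple mutant lay above the spr double mutant.

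The posterior genes were lower. The Hox gene mab-5 ranged from 3.75 to 5.82 CPM over the 12 libraries, and the Abdominal-B relative nob-1 from 1.5 to 3.95. Its neighbour php-3 ranged from 0.143 to 1.02 CPM and egl-5, which patterns the tail, from 0.66 to 2.9. The even-skipped relative vab-7 ranged from 0.699 to 4.27 CPM, with the highest value in replicate 2 of daf-2, the library with the fewest counts. The genotypes overlapped for php-3. The spr triple mutant lay below daf-2 for mab-5, at 4.22 to 5.29 against 5.32 to 5.56 CPM, and for egl-5, at 0.66 to 1.15 against 1.18 to 2.9 CPM. For egl-5 it also lay below the spr double mutant (1.47 to 1.85 CPM). For vab-7 the daf-2 libraries lay above N2, at 1.43 to 4.27 against 0.787 to 1.24 CPM (log2 fold change 1.17, edgeR adjusted p = 0.14).

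**Figure D2:**
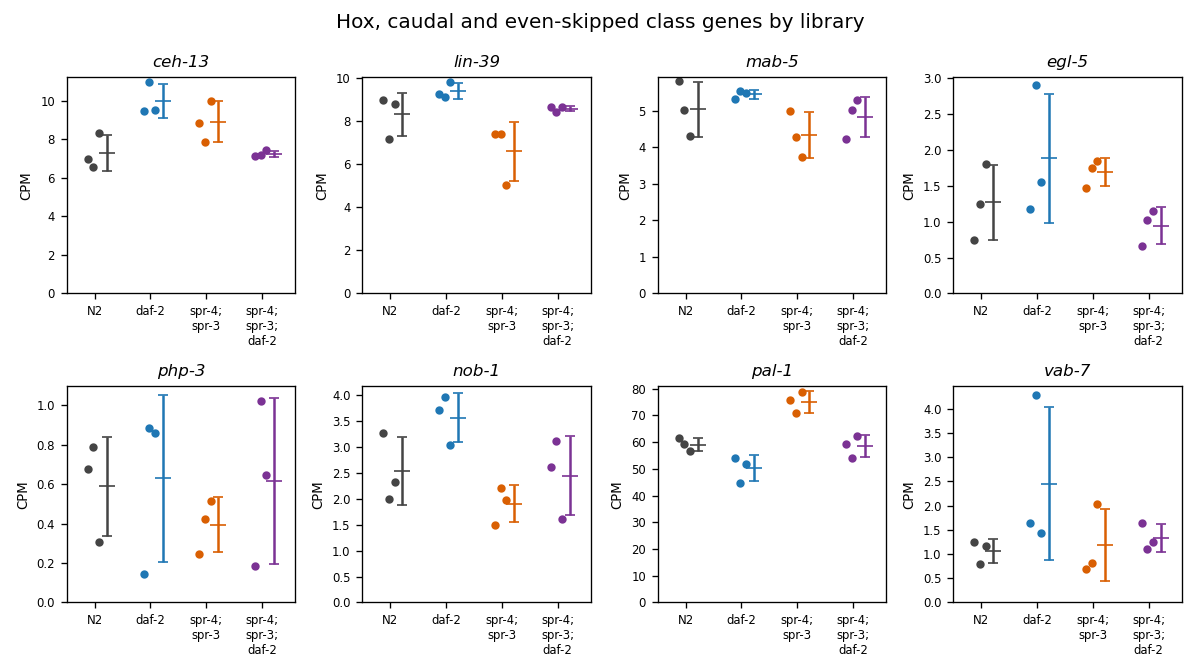
CPM of the 8 Hox, caudal and even-skipped genes in each library, by genotype. Dots are the 3 replicates and bars are mean ± SD. The spr double mutant stands highest for pal-1 (70.7 to 78.8 CPM), and 0 of the 8 genes passed the edgeR test in any comparison.

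Among the sine oculis-type genes, ceh-34 fell in daf-2 and in the spr double mutant, and its libraries overlapped those of N2 in the spr triple mutant. It is a selector of pharyngeal neurons and lies on chromosome V from 5315496 to 5319577. Its CPM were 11.1, 8.75 and 12.3 (N2), 5.14, 3.87 and 5.14 (daf-2), 3.08, 6.71 and 3.67 (spr double mutant) and 10.3, 8.33 and 11.2 (spr triple mutant). Every daf-2 and spr double mutant library was below every N2 and spr triple mutant library.

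The log2 fold change of ceh-34 was -1.17 ± 0.28 (SE) in daf-2 against N2 (adjusted p = 0.007, edgeR) and -1.25 ± 0.28 in the spr double mutant against N2 (adjusted p = 0.01, edgeR). It was 1.06 ± 0.28 in the spr triple mutant against daf-2 (adjusted p = 0.019, edgeR) and 1.15 ± 0.28 in the spr triple against the spr double mutant (adjusted p = 0.011, edgeR). The interaction was 2.32 ± 0.4 (adjusted p = 0.003, edgeR), and the spr triple mutant differed from N2 by -0.11 ± 0.27 (adjusted p = 0.82, edgeR). The first call and the interaction held in every setting. The others ended without single libraries: the spr double mutant against N2 without its replicate 3 (adjusted p = 0.051), the spr triple mutant against daf-2 without daf-2 replicate 2 or 3 (0.079 and 0.056) or triple replicate 1 or 3 (0.055 and 0.072), and the spr triple against the spr double mutant without double replicate 1 or 3 (0.052 and 0.061). The 5 pharynx markers summed to 190 to 310 CPM in N2, 184 to 253 in daf-2, 209 to 246 in the spr double mutant and 165 to 277 in the spr triple mutant. Of the 5, tni-4 passed in 3 comparisons: it fell in daf-2 against N2 (-0.81, adjusted p = 0.0052, edgeR), in the spr triple mutant against N2 (-0.77, 0.0069) and in the spr triple against the spr double mutant (-0.93, 0.003). The part of these markers in the result was not tested. ceh-34, with 2880 counts over all libraries, shares 94 exon bases with C10G8.2, which had 23. The related genes ceh-32 and ceh-33 passed in no edgeR test; DESeq2 called ceh-32 in the spr triple mutant against N2 (-0.67, adjusted p = 0.043) and against the spr double mutant (-0.69, adjusted p = 0.044).

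The Pax6 gene vab-3, which patterns the head, had a like order of levels with smaller steps. Its CPM were 12, 13 and 18.9 (N2), 7.75, 10.5 and 11.4 (daf-2), 7.23, 9.41 and 8.45 (spr double mutant) and 12.7, 13.4 and 16.2 (spr triple mutant). The spr double mutant lay below N2 and the spr triple mutant without overlap. Its log2 change was -0.81 ± 0.22 in the spr double mutant against N2 (adjusted p = 0.026, edgeR) and 0.76 ± 0.22 in the spr triple against the spr double mutant (adjusted p = 0.028, edgeR). In daf-2 against N2 it was -0.57, which did not pass (adjusted p = 0.077, edgeR). The interaction of 1.33 ± 0.31 (adjusted p = 0.015, edgeR) held in every setting. Without N2 replicate 3 or double replicate 1 or 3, the first of these calls ended (adjusted p = 0.14, 0.098 and 0.076), as it did in a fit of these genotypes alone (0.063). The second ended without double replicate 1 or 3 or triple replicate 2 or 3 (0.1, 0.083, 0.052 and 0.11).

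Of the 7 LIM genes, ttx-3 and lim-6 passed. The AIY selector ttx-3 was low, at 2.51, 1.41 and 2.04 (N2), 1.75, 1.45 and 1.6 (daf-2), 0.384, 1.09 and 0.435 (spr double mutant) and 1.94, 1.71 and 4.19 (spr triple mutant). The spr double mutant was the lowest without overlap. Its log2 fold change was -1.63 ± 0.5 in the spr double mutant against N2 (adjusted p = 0.044, edgeR) and 2.03 ± 0.5 in the spr triple against the spr double mutant (adjusted p = 0.012, edgeR), with an interaction of 2.34 ± 0.69 (adjusted p = 0.048, edgeR). These calls are fragile. The first was lost without any of 8 libraries (adjusted p 0.053 to 0.16), all but N2 and double replicate 2 and triple replicates 2 and 3, and in the fit of these genotypes alone (0.1). The second was lost without double replicate 1 or 3 or triple replicate 3 (0.051, 0.063 and 0.086), and the interaction without any of 9 libraries (0.057 to 0.15), all but replicate 2 of N2, the double and the triple. ttx-3, with 671 counts over all libraries, shares 80 exon bases with lact-7, which had 9359. The part of lact-7 reads in the ttx-3 counts was not tested. Of the AIY genes known to lie downstream of ttx-3, 4 of 5 were tested. In the spr double mutant against N2, the spr triple against the spr double mutant and the interaction, 0 of these 4 passed by edgeR. Their median log2 values there were 0.46, 0.62 and -0.78. In daf-2 against N2, where ttx-3 did not pass, kal-1 (log2 fold change 1.95, edgeR adjusted p = 0.0016) and hen-1 (1.61, 0.014) rose. Likewise, kal-1 rose in the spr triple mutant against N2 (1.63, edgeR adjusted p = 0.0052).

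The Lmx-type gene lim-6 works in several neurons and in the uterus. Its CPM were 29.5, 25.7 and 29.3 (N2), 69.6, 44.3 and 37.8 (daf-2), 29.4, 31.3 and 15.2 (spr double mutant) and 21.2, 22 and 23.7 (spr triple mutant). The daf-2 libraries lay above all others. Its log2 change was 0.84 ± 0.24 in daf-2 against N2 (adjusted p = 0.02, edgeR) and -1.18 ± 0.24 in the spr triple mutant against daf-2 (adjusted p = 0.0046, edgeR). The latter held in every setting, and the former ended without any single N2 library (adjusted p = 0.051, 0.074 and 0.052) or without daf-2 replicate 1 (0.15), which holds the highest value. The interaction was -1.03 (adjusted p = 0.075, edgeR). lim-6, with 11620 counts over all libraries, shares 23 exon bases with pfn-3, which had 7522.

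The selector genes of touch and thermosensory neurons passed in no edgeR test. The POU gene unc-86 and its partner mec-3 together specify touch neurons. unc-86 ranged from 2.26 to 10.1 CPM and mec-3 from 3.01 to 8.62 over the libraries. Of 9 touch genes downstream of them, 3 fell in the spr double mutant against N2, where 6.6% of all tested genes were lower. They were the tubulin mec-12 (log2 fold change -0.72, edgeR adjusted p = 0.013), the tubulin acetyltransferase mec-17 (-0.85, 0.014) and the tubulin mec-7 (-0.82, 0.026). Both mec-12 (0.54, edgeR adjusted p = 0.041) and mec-7 (0.7, 0.043) rose in the spr triple against the spr double mutant. mec-12 also fell in daf-2 against N2 (-0.54, adjusted p = 0.032, edgeR), mec-6 rose in the spr triple mutant against N2 (0.87, 0.035), and the interaction passed for mec-12 (1.07, 0.012) and mec-17 (0.97, 0.044). The 9 touch genes summed to 209 to 229 CPM in N2, 149 to 184 (daf-2), 108 to 186 (spr double) and 174 to 214 (spr triple). ttx-1 is the AFD selector, and of 6 AFD genes only dac-1 passed, in the spr triple mutant against N2 (0.65, edgeR adjusted p = 0.044).

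The POU gene ceh-18 acts in the gonadal sheath, where it restrains oocyte maturation. Its CPM were 26, 20.8 and 26.1 (N2), 17.9, 12.3 and 15.9 (daf-2), 15.6, 20.2 and 19 (spr double mutant) and 16.8, 13.8 and 15 (spr triple mutant). All N2 libraries lay above all others. The log2 fold change was -0.65 ± 0.18 in daf-2 against N2 (adjusted p = 0.015, edgeR) and -0.68 ± 0.18 in the spr triple mutant against N2 (adjusted p = 0.011, edgeR). The first ended without N2 replicate 1 or 3 or daf-2 replicate 2 (adjusted p = 0.055, 0.058 and 0.061). Of 10 oocyte markers, 7 fell in the first of these comparisons (11% of all tested genes were lower). In the second, 2 fell and 2 rose (11.3% and 10.8% of all tested genes). Their part in the result was not tested.

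Among the Pbx-type genes, partners of Hox proteins, ceh-40 rose in daf-2. Its CPM were 2.06, 1.57 and 1.26 (N2), 6.57, 4.03 and 4.89 (daf-2), 3.46, 5.29 and 2.36 (spr double mutant) and 4.26, 3.65 and 2.03 (spr triple mutant). N2 was the lowest in all but its highest value, which lay just above the lowest spr triple mutant library. The log2 fold change in daf-2 against N2 was 1.67 ± 0.38 (adjusted p = 0.0051, edgeR) and held in every setting. The interaction was -1.83 ± 0.53 (adjusted p = 0.043, edgeR) and was lost without any of 10 libraries (adjusted p 0.053 to 0.11), all but double replicate 3 and triple replicate 1. In the spr double mutant against N2 the log2 fold change of 1.18 did not pass (adjusted p = 0.054, edgeR), while DESeq2 gave 1.16 (adjusted p = 0.026). ceh-40, with 1314 counts over all libraries, shares 59 exon bases with xtr-2, which had 8.

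The Pbx gene ceh-60 is needed for yolk protein (vitellogenin) expression and ranged from 1.32 to 3.75 CPM with no call. Of the 6 vitellogenin genes, 4 fell in the spr double mutant against N2, where 6.6% of all tested genes were lower. They were vit-5 (log2 fold change -2.01, edgeR adjusted p = 0.0033), vit-6 (-1.79, 0.0066), vit-2 (-1.53, 0.015) and vit-1 (-1.83, 0.024). vit-5 also fell against N2 in daf-2 (-1.55, adjusted p = 0.0061, edgeR) and in the spr triple mutant (-1.98, 0.0011). vit-6 (1.27, adjusted p = 0.025, edgeR) and vit-3 (2.17, 0.04) rose in the spr triple against the spr double mutant. The 6 genes summed to 45500 to 70500 CPM in N2, 23500 to 36100 (daf-2), 8980 to 29900 (spr double) and 25800 to 28500 (spr triple). Replicates of the spr double mutant spread widely, with vit-5 at 7490 ± 4890 CPM (SD). Intestine markers, 7 genes of the tissue that makes yolk, summed to 399 to 464 CPM in N2, 174 to 179 (daf-2), 262 to 281 (spr double) and 125 to 164 (spr triple). Their part in the result was not tested. The Hox partner ceh-20 ranged from 11.3 to 19.5 CPM and passed in none.

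The 3 neighbouring Onecut genes on chromosome X did not all move. ceh-21 (1848779 to 1852736) had 38.1, 43.2 and 34.4 (N2), 32.5, 27.1 and 23.1 (daf-2), 34.5, 41.8 and 41 (spr double mutant) and 28, 29.4 and 24.2 (spr triple mutant). Both daf-2 mutant groups lay below both groups with daf-2 intact. Its log2 fold change was -0.49 ± 0.16 in daf-2 against N2 (adjusted p = 0.036, edgeR), -0.52 ± 0.16 in the spr triple against the spr double mutant (adjusted p = 0.032, edgeR) and -0.5 ± 0.16 in the spr triple mutant against N2 (adjusted p = 0.028, edgeR). Each of these ended without any of 4 libraries, with adjusted p 0.074 to 0.15, 0.069 to 0.13 and 0.062 to 0.12. They were N2 replicates 1 and 2 with daf-2 replicates 2 and 3, double replicates 2 and 3 with triple replicates 1 and 3, and N2 replicates 1 and 2 with triple replicates 1 and 3. The second also missed it in the fit of these genotypes alone (0.052).

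ceh-39, an X-linked signal that helps the embryo count its X chromosomes, had 31.9, 25.1 and 22.5 (N2), 18.6, 21.6 and 15 (daf-2), 20.6, 22.8 and 23.1 (spr double mutant) and 16.9, 17.3 and 18.5 (spr triple mutant). It was -0.53 ± 0.17 on the log2 scale in daf-2 against N2 (adjusted p = 0.034, edgeR) and -0.59 ± 0.17 in the spr triple mutant against N2 (adjusted p = 0.018, edgeR). Neither held without N2 replicate 1 (adjusted p = 0.17 and 0.11), its highest value; daf-2 replicate 1 or 3 (0.082 and 0.16) and triple replicate 1 (0.061) also ended them. The first also missed the threshold in the fit of these genotypes alone (0.052). ceh-41, between 6.63 and 11.4 CPM, passed in none. Tests of the differences between these neighbours were not run.

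Paired-like and Otx genes included a gene that rose with mutation of the spr genes in both backgrounds. The Goosecoid relative ceh-45 (chromosome I, 1128324 to 1131765) had 4.8, 4.95 and 6.02 (N2), 6.86, 4.03 and 4.91 (daf-2), 7.97, 9.07 and 9.89 (spr double mutant) and 10.2, 11.7 and 14.4 (spr triple mutant). Every library with the spr genes mutated was above every library with them intact. The log2 fold change was 0.77 ± 0.23 in the spr double mutant against N2 (adjusted p = 0.043, edgeR), 1.19 ± 0.24 in the spr triple mutant against daf-2 (adjusted p = 0.0035, edgeR) and 1.2 ± 0.23 in the spr triple mutant against N2 (adjusted p = 0.0015, edgeR). The latter pair held in every setting, whereas the first ended without any of 9 libraries (adjusted p 0.054 to 0.14), all but daf-2 replicates 1 and 2 and triple replicate 3, and in the fit of these genotypes alone (0.074).

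The Otx gene ceh-37 (sensory neurons) had 34.3, 30.2 and 40 (N2), 28.6, 21.4 and 27.2 (daf-2), 20.9, 24.7 and 15.9 (spr double mutant) and 20.0, 24.3 and 25.5 (spr triple mutant). All N2 libraries were the highest. It was -0.77 ± 0.18 in the spr double mutant against N2 (adjusted p = 0.014, edgeR), a call that ended without N2 replicate 3 (0.068) or double replicate 3 (0.066). In the spr triple mutant against N2 it was -0.58 ± 0.18 (adjusted p = 0.03, edgeR), and this ended without N2 replicate 1 or 3 or triple replicate 1 or 2 (0.064, 0.13, 0.12 and 0.054). ceh-37, with 9937 counts over all libraries, shares 105 exon bases with C37E2.7, which had 6. ceh-8, a relative of the retinal Rx genes, had 2.71, 2.42 and 2.8 CPM in daf-2 and 4.22, 5.28 and 7.92 in the spr triple mutant, a log2 fold change of 1.13 ± 0.35 (adjusted p = 0.044, edgeR). That call ended without any daf-2 library, double replicate 3 or triple replicate 2 or 3 (0.052 to 0.2). Of the 14 tested NK-like and related genes, the Distal-less relative ceh-43 alone passed by edgeR: 2.7, 2.72 and 2.45 CPM in N2 and 5.14, 6.12 and 4.81 in daf-2, a log2 fold change of 1.02 ± 0.33 (adjusted p = 0.035, edgeR), lost without any single N2 or daf-2 library (0.068 to 0.11). DESeq2 called ceh-43 (0.85, adjusted p = 0.047) and ceh-2 (1.32, 0.042) in the spr triple mutant against N2.

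Of the 20 tested genes in no class list, 9 passed at least once, beside 40.6% of all tested genes. Roles are not given for them here. ceh-99 (chromosome II, 12519981 to 12524478) had 57.9, 48.6 and 45.8 (N2), 17.1, 16.4 and 18.8 (daf-2), 36, 55.6 and 43.7 (spr double mutant) and 32.1, 32.9 and 29.1 (spr triple mutant). The daf-2 libraries were lowest, and the spr triple mutant lay between daf-2 and both other groups, without overlap. Its log2 fold change was -1.54 ± 0.16 in daf-2 against N2 (adjusted p = 5e-06, edgeR), 0.84 ± 0.16 in the spr triple mutant against daf-2 (adjusted p = 0.0026, edgeR) and -0.69 ± 0.16 in the spr triple mutant against N2 (adjusted p = 0.0045, edgeR). The interaction was 1.01 ± 0.22 (adjusted p = 0.012, edgeR). These 4 calls held in every setting. In the spr triple against the spr double mutant it was -0.52 ± 0.16 (adjusted p = 0.034, edgeR), lost without daf-2 replicate 3, double replicate 2 or 3 or any triple library (0.052 to 0.15) and in the fit of these genotypes alone (0.08). The oocyte markers, too, were lowest in daf-2: 2120 to 2430 summed CPM, against 3440 to 4350 in the spr triple mutant and 4330 to 5750 in N2. Of the 10, 7 fell in daf-2 against N2 (11% of all tested genes were lower). In the spr triple mutant against daf-2, 7 of these markers rose (6.77% of all tested genes were higher). Their part in the result was not tested.

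ceh-63 (chromosome X, 3672274 to 3674058) was lowest in the spr double mutant. Its CPM were 14.9, 12.7 and 14.8 (N2), 13.9, 9.9 and 8.57 (daf-2), 4.79, 9.74 and 5.14 (spr double mutant) and 14.9, 16.3 and 14.9 (spr triple mutant). The spr double mutant did not overlap with N2 or the spr triple mutant. The log2 fold change was -1.1 ± 0.26 in the spr double mutant against N2 (adjusted p = 0.012, edgeR) and 1.23 ± 0.25 in the spr triple against the spr double mutant (adjusted p = 0.004, edgeR), with an interaction of 1.61 ± 0.36 (adjusted p = 0.012, edgeR). The first ended without double replicate 1 or 3 (0.055 and 0.061), and the others held in every setting. ceh-63, with 4443 counts over all libraries, shares 18 exon bases with tag-52, which had 8828. In ceh-34, vab-3, ttx-3 and ceh-63 alike, replicate 2 was the highest of the 3 spr double mutant libraries. Without it, their log2 changes in the spr double mutant against N2 were -1.7, -0.93, -2.3 and -1.54, all past the threshold (edgeR adjusted p 0.00038 to 0.017). Replicate 2 was also the highest spr double mutant library for ceh-40, ceh-99, ceh-92 and ceh-83, so this order was not particular to those genes. Leaving it out ended the ceh-40 interaction. It also ended the ceh-99 call in the spr triple against the spr double mutant (edgeR adjusted p = 0.15).

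**Figure D3:**
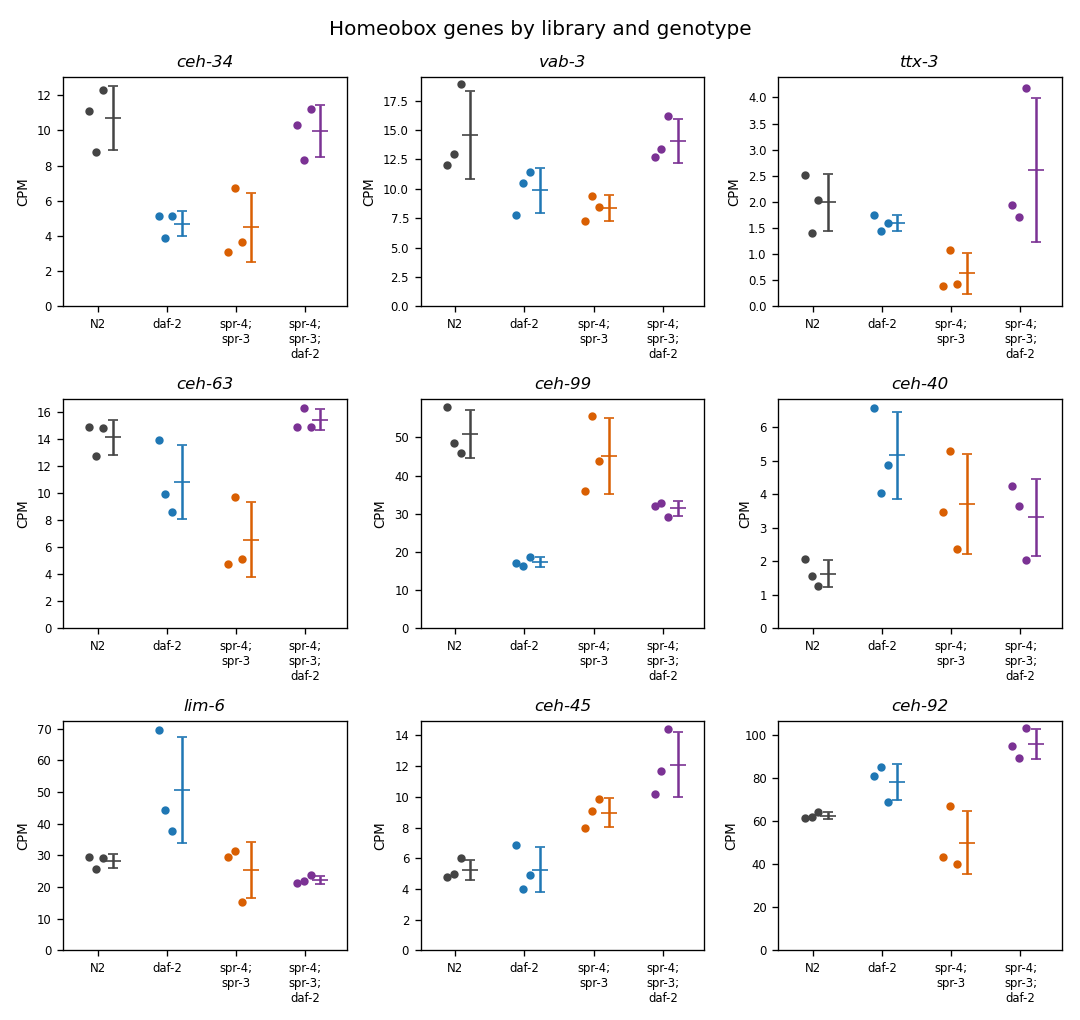
CPM of 9 homeobox genes in each library, by genotype, on linear axes. Dots are the 3 replicates and bars are mean ± SD. For ceh-34, the daf-2 (3.87 to 5.14 CPM) and spr double mutant libraries (3.08 to 6.71) lie below the N2 and spr triple mutant libraries, while ceh-45 is highest in the spr triple mutant (10.2 to 14.4).

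Neighbours ceh-92 and ceh-91 on chromosome III, 27613 bp apart, had their highest means in the spr triple mutant. ceh-92 had 61.4, 61.8 and 64.3 (N2), 81.0, 85.0 and 68.9 (daf-2), 43.3, 67.0 and 40 (spr double mutant) and 95, 89.2 and 103 (spr triple mutant). It was 0.93 ± 0.17 on the log2 scale in the spr triple against the spr double mutant (adjusted p = 0.0014, edgeR), held in every setting, and 0.61 ± 0.17 in the spr triple mutant against N2 (adjusted p = 0.014, edgeR), which ended without triple replicate 3 (0.057). ceh-91 had 8.29, 11.8 and 11.7 (N2), 18.6, 15.9 and 17.7 (daf-2), 17.3, 13.5 and 12.6 (spr double mutant) and 17.9, 19.8 and 20.3 (spr triple mutant). N2 lay below every other group. It was 0.72 ± 0.18 in daf-2 against N2 (adjusted p = 0.01, edgeR; 0.056 without N2 replicate 1) and 0.87 ± 0.18 in the spr triple mutant against N2 (adjusted p = 0.0026, edgeR).

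ceh-100 was also lowest in N2, at 52.8, 62.2 and 47.8 CPM, against 83, 84.3 and 82.6 in daf-2, 78.9, 77.1 and 71.6 in the spr double mutant and 91.9, 71.5 and 77.4 in the spr triple mutant. Its log2 fold changes against N2 were 0.62 ± 0.13 in daf-2 (adjusted p = 0.003, edgeR), 0.48 ± 0.13 in the spr double mutant (adjusted p = 0.027, edgeR) and 0.56 ± 0.13 in the spr triple mutant (adjusted p = 0.0054, edgeR). The middle call ended without N2 replicate 1 or 3, daf-2 replicate 3 or any double library (0.052 to 0.12) and in the fit of these genotypes alone (0.075). Neighbours ceh-82 and ceh-83 on chromosome II, 425 bp apart, fell in daf-2. ceh-82 had 4.92, 5.87 and 3.74 CPM (N2), 0.571, 1.61 and 1.1 (daf-2), 1.71, 2.21 and 0.734 (spr double) and 1.61, 2.84 and 0.55 (spr triple). All mutant libraries lay below all N2 libraries. Its log2 change against N2 was -2.19 ± 0.57 in daf-2 (adjusted p = 0.011, edgeR; 0.059 without daf-2 replicate 1), and by edgeR it did not pass in the spr double (-1.64, adjusted p = 0.06), the spr triple (-1.54, 0.051) or the interaction (2.29, 0.079). DESeq2 called all of these, with adjusted p of 0.021, 0.023 and 0.031. ceh-83 had 45.1, 56.9 and 48.6 CPM (N2), 39.1, 34.4 and 28.3 (daf-2), 29.8, 51 and 33.5 (spr double) and 35.3, 36.1 and 34 (spr triple). In daf-2 against N2 it was -0.57 ± 0.18 (adjusted p = 0.037, edgeR), lost without N2 replicate 2 or 3 or daf-2 replicate 2 or 3 (0.13, 0.07, 0.082 and 0.16). In the spr triple mutant against N2 it was -0.51 (adjusted p = 0.054, edgeR), which DESeq2 called (adjusted p = 0.04).

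The last genes to pass, each in a single comparison, were ceh-74 and ceh-93. ceh-74 had 9.64, 10.3 and 11 CPM in the double and 5.17, 6.04 and 8.06 in the spr triple mutant, a log2 fold change of -0.68 ± 0.21 (adjusted p = 0.042, edgeR), lost without any of 9 libraries (0.054 to 0.16), all but N2 replicates 2 and 3 and triple replicate 3, in the fit of these genotypes alone (0.093) and without the filter on low counts (0.07). ceh-93 had 21.6, 29.4 and 22.5 CPM in N2 and 15.1, 20.5 and 10.8 in the spr triple mutant, a log2 fold change of -0.66 ± 0.22 (adjusted p = 0.041, edgeR), lost without N2 replicate 2 or 3, daf-2 replicate 1 or triple replicate 1 or 3 (0.054 to 0.17) and in the fit of these genotypes alone (0.054).

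Each mutation can be read in both backgrounds from comparisons that share no library. For daf-2, 12 homeobox genes passed against N2 and 8 in the spr triple against the spr double mutant. Of these, ceh-21 and ceh-99 were lower in both (16.7% and 25% of the lists), and ceh-34 went opposite ways. Over all genes, 1130 passed in the same direction (30% and 41.3%) and 108 in opposite directions. For the spr genes, 7 passed against N2 and 5 in the spr triple mutant against daf-2. ceh-45 rose in both (14.3% and 20.0%). The opposite signs of ceh-34 here are the same interaction as for daf-2, from the same libraries, and no separate observation. Over all genes, 507 were shared in direction (23.7% and 20.6%) and 148 opposed.

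**Figure D4:**
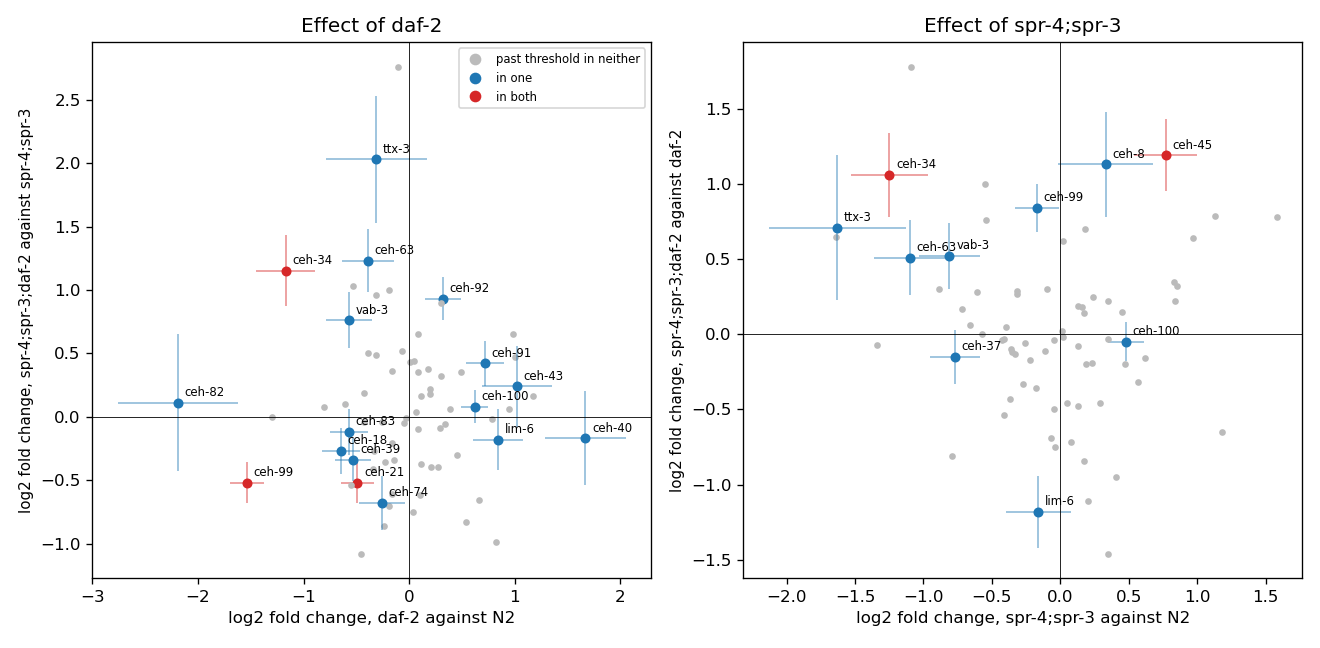
Log2 fold changes of the 73 tested homeobox genes with counts in N2, for the daf-2 mutation (left) and the spr-4;spr-3 mutations (right), each in both backgrounds. Lines are ± SE, blue marks genes past the threshold in a single comparison and red in both. ceh-34 is past it on both axes of each panel, with opposite signs (-1.17 and 1.15 on the left, -1.25 and 1.06 on the right). Both panels use the same libraries, so these are a single interaction.

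Of 16 homeobox genes outside the named set, 7 passed at least once, beside 40.6% of all tested genes. In daf-2 against N2, pros-1, a Prospero relative, rose (log2 fold change 1.16, edgeR adjusted p = 0.0076), as did hmbx-1 (0.9, 0.044), and the Iroquois gene irx-1 fell (-0.72, 0.029). pros-1 also rose against N2 in the spr double mutant (1.17, adjusted p = 0.015, edgeR) and in the spr triple mutant (1.31, 0.003), where pax-3 rose (2.04, 0.0083) and dve-1 fell (-1.02, 0.0075). Of the 16, 3 fell in the spr triple mutant against daf-2, where 6.65% of all tested genes were lower. They were dve-1 (-1.21, edgeR adjusted p = 0.0048), the Meis-type Hox partner unc-62 (-0.5, 0.022) and duxl-1 (-0.52, 0.041).

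Polycomb and trithorax type proteins keep Hox genes off or on. Of 12 such genes, 1 rose and 6 fell in the spr triple against the spr double mutant (7.02% and 7.92% of all tested genes). Their median log2 fold change was -0.36, against 0.01 over all genes. Those that fell included the histone demethylases jmjd-3.1 (-0.95, edgeR adjusted p = 0.0021) and utx-1 (-0.64, 0.023), while the methyltransferase partner mes-6 rose (0.76, 0.0052). At most 2 of the 12 passed in each other test. Wnt signals act upstream of several Hox genes. Of 18 Wnt genes, 3 rose and 2 fell in daf-2 against N2 (9.58% and 11% of all tested genes), among them the ligand mom-2 (-1.53, edgeR adjusted p = 1.4e-05) and the Axin pry-1 (0.92, 0.00036). In the spr triple mutant against daf-2, 3 rose and 1 fell (6.77% and 6.65% of all genes): the ligand lin-44 rose (1.05, edgeR adjusted p = 0.00043) and the Frizzled receptor mig-1 fell (-1.6, 8.5e-05). Against N2 the spr double mutant had 3 higher and 2 lower (5.07% and 6.6% of all genes), with the ligand cwn-2 at 2.19 (adjusted p = 0.0061, edgeR) and mig-1 at -0.99 (0.0045). The spr triple mutant against N2 had the most calls, 5 higher and 2 lower (10.8% and 11.3% of all genes), with lin-44 at 1.34 (adjusted p = 1.4e-05, edgeR) and mig-1 at -1.07 (0.00081).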

How the data were processed

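The authors deposited a table of raw counts per gene, in whole numbers, for all 12 libraries. Per the labels' protocols, cDNA was made from 2 ng of total RNA with SMART-Seq v4 reagents and read as paired 75 bp ends. STAR, featureCounts 1.5.1 and the WBcel235 assembly are named in the submitters' processing notes. The annotation release, strand setting and handling of multi-mapping reads are named in no source used here. Columns of other samples: 0.

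Genes were filtered with filterByExpr (minimum count 10, minimum total 15), scaled by TMM and tested with edgeR 4.0.16 (R 4.3.3), quasi-likelihood, robust, with 1 term per genotype over all 12 libraries, two-sided. P-values were Benjamini-Hochberg adjusted over 18342 genes at a threshold of 0.05. The procedure was tested on simulated data. Levels per length used merged exon lengths from Ensembl release 115. Replicate libraries differed beyond counting noise (a chi-square of 21.6 to 162 for each degree of freedom). A count of 3, used as a floor, corresponded to 0.0645 to 0.2523 CPM on raw library totals and covers counting error only. Whether the biological replicates were separate cultures is not stated, so p-values measure the spread between these samples.

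The members and lists were chosen with earlier results of these data known. Values were given for members past the threshold, for all Hox-class members, for the 10 highest members per length in N2, and for at most 4 genes of each other list per comparison. Alternatives were DESeq2 1.42.0, its size factors in edgeR, no filter, a replicate block, the genotypes of a comparison alone, and leaving out each library.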

Additional observations from a re-analysis of the deposited data

Results flagged for a closer look

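The 6 homeobox genes named here differed in how they responded to mutation of spr-4 and spr-3 with daf-2 mutated and with daf-2 intact, by the interaction test in edgeR over all 12 libraries. The values are the log2 effect in daf-2 minus that in N2. It was 2.32 for ceh-34, 2.34 for ttx-3, 1.61 for ceh-63, 1.33 for vab-3, 1.01 for ceh-99 and -1.83 for ceh-40. The interactions of ceh-34, ceh-63, vab-3 and ceh-99 held in all alternatives run, and those of ttx-3 and ceh-40 were lost without 9 and 10 of the 12 libraries, each left out in turn. Among all tested genes 8.32% passed the same test.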

How the results depend on the processing

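Of 48 homeobox gene calls over the 6 tests, 18 held in every alternative, 30 were lost without some library, 12 in another setting, and 0 of 810 single alternatives reversed a direction. The count of homeobox genes called moved by over 1.5 times in these cases, for which the cause was not tested. Shares of all tested genes are not set beside these counts, so they describe stability and no trait of the homeobox genes. In the spr double mutant against N2 it went from 7 to 4 in the fit of these genotypes alone and to 13 with DESeq2. In the spr triple mutant against N2 it went from 10 to 16 without the filter on low counts and to 16 with DESeq2. With the genotypes of the comparison alone it went from 5 to 8 in the spr triple mutant against daf-2 and from 8 to 5 in the spr triple against the spr double mutant. Leaving out each library gave 6 to 13 calls in daf-2 against N2 (6 without N2 replicate 1), 3 to 6 in the spr triple mutant against daf-2 (3 without daf-2 replicate 2 or 3 or triple replicate 3), and 1 to 11 in the spr double mutant against N2 (1 without its replicate 3, 11 without its replicate 2). It gave 2 to 10 in the spr triple against the spr double mutant (2 without double replicate 3), 7 to 12 in the spr triple mutant against N2 and 4 to 11 in the interaction (11 without double replicate 2). Replicate numbers did not pair the libraries: same-numbered libraries correlated at -0.067 to 0.064 in their deviations. With the replicate block the counts were 11, 4, 8, 6, 10 and 5, in the order daf-2 against N2, triple against daf-2, double against N2, triple against double, triple against N2 and interaction. It ended 8 calls: ceh-8 (triple against daf-2), ceh-37 (triple against N2), ceh-39 (daf-2 against N2), ceh-45 and ttx-3 (double against N2), ceh-74 and ceh-99 (triple against double) and the ttx-3 interaction. Depth limits the 10 untested genes and those under 2 CPM, whose replicates varied most.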
